A study of Mus musculus with 48 samples.

Results

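Donor CD8 T cells recovered 7 days after transplantation from hosts given iNKT1 cells were set against donor CD8 T cells from hosts given no iNKT cells (untreated). The 6 libraries were taken by group from the table of donor T cell counts, 3 with iNKT1 and 3 untreated, out of 48 samples in the series. The cells were conventional T cells of FVB/N mice, sorted from spleen and peripheral lymph nodes of BALB/c hosts in a graft-versus-host disease (GVHD) model with a major mismatch. Matching libraries came from hosts given iNKT2 or iNKT17 cells, from donor CD8 T cells before transplantation (day 0), and from donor CD4 T cells of the same groups, with 3 libraries each. No label ties replicates to separate hosts, so the p-values rest on a library spread that could be technical. Each group's titles name 2 experiments, and the table columns carry only numbers, so that spread may also hold a difference between experiments.

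Invariant natural killer T (iNKT) cells carry a nearly invariant T cell receptor that reads lipids on CD1d, and iNKT1 is the T-bet-expressing sublineage known for interferon gamma. In GVHD, donor CD8 T cells meet host antigens, divide and turn into cytotoxic effector cells that damage host tissue. Inhibitory receptors such as CTLA-4 and PD-1 are induced on activated T cells and dampen their signalling, while chaperones of the heat shock response help proteins fold during rapid growth.

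Total gene counts ran from 26465775 to 32758398 over the 6 libraries, with 17402 to 18667 genes detected. Spearman correlations across genes were 0.986 to 0.99 between libraries of the same group and 0.982 to 0.99 between groups. T cell markers summed to 9880 to 10600 CPM (read counts scaled to library size) with iNKT1 and 9710 to 10900 CPM in untreated cells. Cd4 stayed between 0.129 and 0.789 CPM in all 6 libraries, and the iNKT factor Zbtb16 between 0 and 0.129 CPM. Of the other marker lists, that of red cells and platelets summed to 92.8 to 117 CPM with iNKT1 and 43.8 to 83 CPM in untreated cells, with no overlap, and 13 of its 16 tested genes lay above 0 (median log2 fold change 0.47). Its main members were Tfrc at 43.7, 40.7 and 53.2 CPM with iNKT1 against 31.7, 38.8 and 24.6 CPM in untreated cells, and Car1 at 27.1, 41.7 and 26.4 CPM with iNKT1 against 30.1, 9.8 and 6.92 CPM in untreated cells. The separation of the sums rested on Tfrc, and Car1 overlapped. Car2 had 14.6, 23.1 and 18 CPM with iNKT1 against 12.9, 6.08 and 6.46 CPM in untreated cells and was the 1 gene of the list that DESeq2 called, while the haemoglobin genes Hba-a1 and Hbb-bs were at 5.21 CPM or less in all 6 libraries and overlapped. The list of myeloid and dendritic cells summed higher, to 605 to 695 CPM with iNKT1 and 616 to 906 CPM in untreated cells, which overlap. Of its 29 tested genes, 22 lay below 0 (median log2 fold change -0.24) and 0 passed in edgeR. Its neutrophil gene Ngp was uneven, at 64.7, 86.6 and 67.6 CPM with iNKT1 and 167, 75 and 39 CPM in untreated cells. The part of red cells, platelets and myeloid cells in the results below was not tested. In bulk libraries, fewer cells of a type and less RNA per cell cannot be told apart.

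With iNKT1 cells given, donor CD8 T cells held less of the cold-inducible RNA-binding protein gene Cirbp and of the inhibitory receptor gene Ctla4, and more of the splicing factor gene Srsf7 and the chaperone gene Hsph1. The changes were few. Of 14586 genes tested, 23 passed an adjusted p under 0.05 in edgeR's quasi-likelihood test (0.158% of genes tested), 13 higher (0.0891%) and 10 lower (0.0686%) with iNKT1. Of these, 2 pairs had identical counts in every library (an unnamed ID each with Atad2 and with Slfn10-ps), which leaves 21 distinct profiles. Their fold changes were between 0.53 and 1.91 in size on the log2 scale, and in all 23 the 3 iNKT1 libraries lay wholly on one side of the 3 untreated libraries. Over all genes, 18.5% were separated in this way and 12.3% had an unadjusted p under 0.05. The number of calls rested on every library: it was 0 without iNKT1 replicate 1, 2 without iNKT1 replicate 2 and 3 without iNKT1 replicate 3. It was 0 without untreated replicate 1, 6 without untreated replicate 2 and 9 without untreated replicate 3. DESeq2 called 388 genes, among them all 23.

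**Figure D1:**
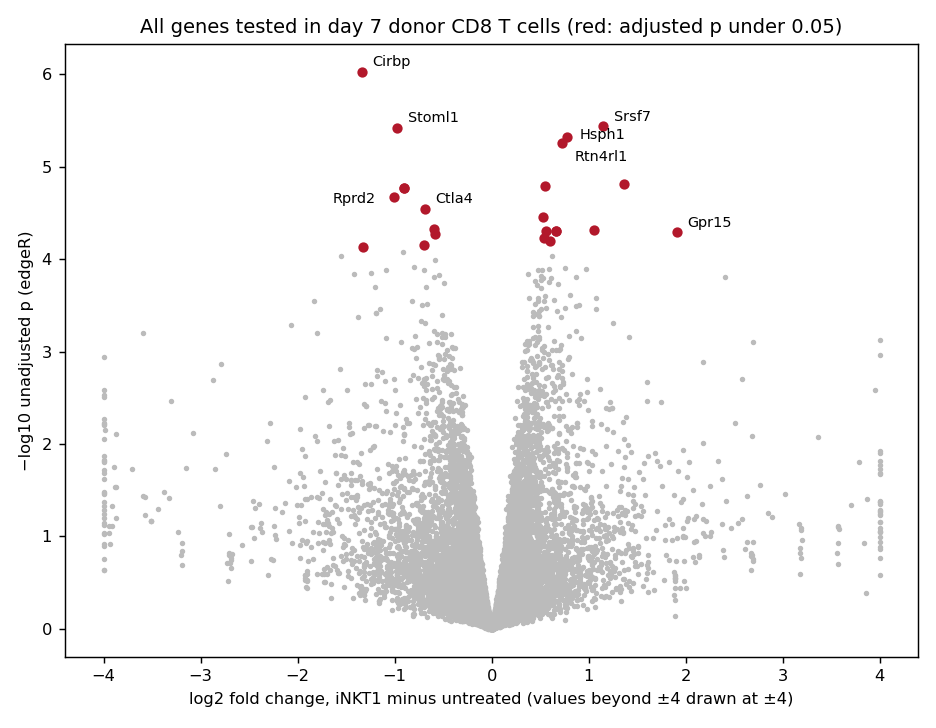
Log2 fold change (iNKT1 minus untreated, horizontal) against the minus log10 of the unadjusted p (vertical) for the 14586 genes tested in day 7 donor CD8 T cells. The 23 genes that passed are in red, led by Cirbp on the lower side and Srsf7 on the higher side.

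RNA-binding and RNA-processing genes gave the 2 smallest p-values, Cirbp and Srsf7. Cirbp, whose product binds RNA and is induced by mild cold, had 46.9, 66.7 and 68.2 CPM with iNKT1, against 176, 141 and 144 CPM in untreated cells. All iNKT1 libraries were below all untreated ones by a wide margin, and at day 0 the gene stood at 134, 152 and 135 CPM. Cirbp fell by 1.34 on the log2 scale (SE 0.17, 95% interval -1.7 to -0.98, edgeR adjusted p = 0.0137). It kept its call in 12 of 14 alternative settings, the most of any of the 23 genes.

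Srsf7, a serine- and arginine-rich splicing factor, had 107, 101 and 100 CPM with iNKT1, against 47, 45.1 and 46.7 CPM in untreated cells. The libraries within each group were close together, and the day 0 cells resembled the untreated ones at 46.3, 57 and 56.5 CPM. Srsf7 rose by 1.15 on the log2 scale (SE 0.16, edgeR adjusted p = 0.0163). Luc7l, which encodes a protein associated with the U1 small nuclear ribonucleoprotein, had 73.5, 76.9 and 76.8 CPM with iNKT1 against 53.1, 54.3 and 49.1 CPM in untreated cells, and rose by 0.54 (SE 0.1, edgeR adjusted p = 0.0433). Rprd2, whose product binds the tail of RNA polymerase II, had 14.1, 14.6 and 20.3 CPM with iNKT1 against 33.8, 35 and 29.8 CPM in untreated cells, and fell by 1.01 (SE 0.16, edgeR adjusted p = 0.0313).

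The wider list of cold-inducible and splicing RNA-binding proteins moved both ways. Of its 26 tested genes, Srsf7 rose, Cirbp fell and 24 did not pass in edgeR (DESeq2 called 4 higher and 2 lower), with a median log2 fold change of 0, the same as over all genes. Groups were separated upward for 7 of the 26 genes and downward for 3, where 9.5% and 8.98% of all genes were. Below edgeR's threshold, Tra2b had 273, 271 and 349 CPM with iNKT1 against 173, 191 and 173 CPM in untreated cells (edgeR adjusted p = 0.112; DESeq2 0.0144), and Srsf10 had 177, 177 and 155 CPM with iNKT1 against 125, 102 and 122 CPM in untreated cells (edgeR adjusted p = 0.0651; DESeq2 0.004). Both encode activators or repressors of exon inclusion. Rbm3, the other cold-inducible gene and Cirbp's close relative, was named after its values were seen: it had 655, 757 and 729 CPM with iNKT1 and 991, 880 and 808 CPM in untreated cells, a log2 difference of -0.32 (edgeR adjusted p = 0.211).

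**Figure D2:**
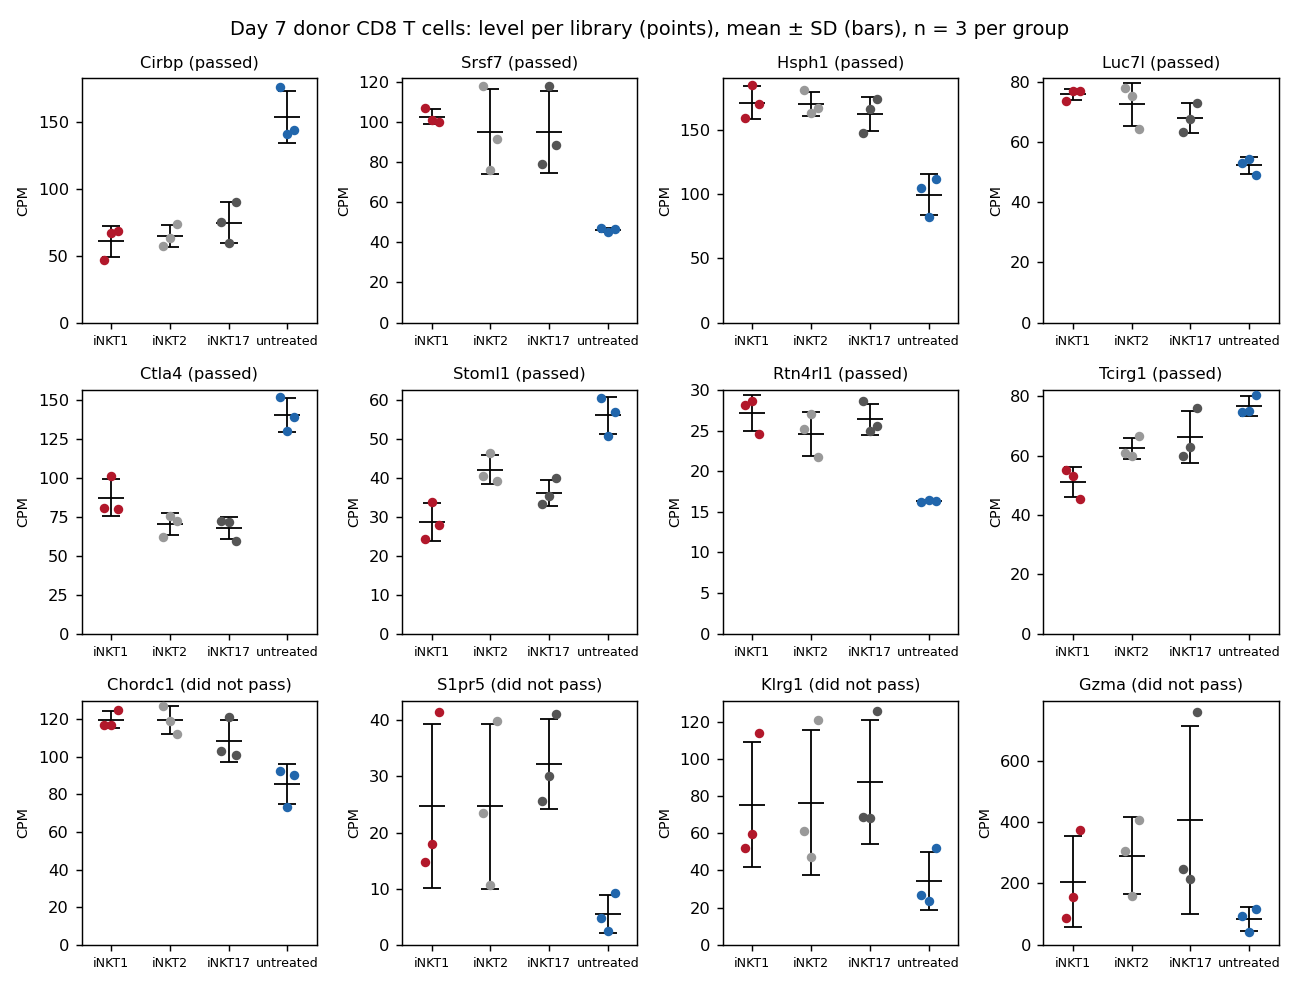
Level in CPM (vertical, from 0) of 12 genes in each day 7 donor CD8 library by group (horizontal: iNKT1, iNKT2, iNKT17, untreated); points are libraries, bars the mean and SD of 3. Cirbp lay at 46.9 to 68.2 CPM with iNKT1, under the 141 to 176 CPM of untreated cells, and S1pr5, Klrg1 and Gzma spread widely within groups.

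Chaperone genes leaned upward with 1 call in edgeR. Hsph1, which encodes the HSP110 partner that reloads HSP70 chaperones with ATP, had 159, 185 and 170 CPM with iNKT1, against 105, 81.9 and 112 CPM in untreated cells. The groups did not overlap, and day 0 cells stood between 141 and 153 CPM. Hsph1 rose by 0.78 on the log2 scale (SE 0.11, 95% interval 0.54 to 1.02, edgeR adjusted p = 0.0163). Of the 32 tested genes of the heat shock list, Hsph1 was the 1 to pass in edgeR, and DESeq2 called 3, adding Chordc1 and Fkbp4. In edgeR, 8 had an unadjusted p under 0.05 with a higher level under iNKT1 and 0 with a lower one. Groups were separated upward for 9 and downward for 0 (9.5% and 8.98% of all genes), and the list's median log2 fold change was 0.1, against 0 over all genes. Chordc1, an HSP90 co-chaperone, had 117, 117 and 125 CPM with iNKT1 and 92.6, 73.1 and 90.3 CPM in untreated cells (edgeR adjusted p = 0.0925; DESeq2 0.0135). Hspa8, the constitutive HSP70, had 666, 707 and 716 CPM with iNKT1 and 542, 573 and 591 CPM in untreated cells (edgeR adjusted p = 0.286). Among 25 tested genes of the unfolded protein response and endoplasmic reticulum chaperones, 0 passed in edgeR or in DESeq2 (4 at an unadjusted p under 0.05 in edgeR), and 20 lay above 0 with a median of 0.13. Hsp90b1, the HSP90 of the endoplasmic reticulum, had 637, 628 and 773 CPM with iNKT1 against 555, 581 and 528 CPM in untreated cells (edgeR adjusted p = 0.218).

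Heat shock factors bind inverted repeats of GAA, so the windows from 250 bases before to 50 bases after gene starts (RefSeq, GRCm38.p6) were searched for GAANNTTCNNGAA on both strands. The letters were in 198 of 32817 windows (0.603%). They were in 5 of the 26 heat shock genes with a window (19.2%) and in 1 of the 16 called genes with a window (6.25%), which was Hsph1. A gene counted if any of its windows matched, so the shares of genes are not in the same unit as the share of windows. Hspd1 and Hspe1, both among the 5 heat shock genes, have matched windows that overlap each other. The longer motif contains both GAANNTTC and TTCNNGAA. Either of these shorter motifs was in 15.1% of all windows, in 14 of the 26 heat shock genes and in 2 of the 16 called genes (12.5%). The windows of Hsph1 (chr5:149636287-149636586, minus strand), Chordc1 (chr9:18292017-18292316, plus strand) and Cirbp (chr10:80167589-80167888, plus strand) are shown because Hsph1 is the chaperone gene that passed, Chordc1 holds the most matches of the heat shock genes and Cirbp had the smallest p; capitals mark the longer motif.
Hsph1: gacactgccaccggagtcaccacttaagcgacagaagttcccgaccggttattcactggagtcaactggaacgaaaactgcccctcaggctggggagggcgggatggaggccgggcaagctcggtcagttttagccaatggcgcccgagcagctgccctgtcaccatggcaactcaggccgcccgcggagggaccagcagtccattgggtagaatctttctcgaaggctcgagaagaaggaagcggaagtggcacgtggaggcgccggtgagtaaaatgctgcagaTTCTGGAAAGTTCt
Chordc1: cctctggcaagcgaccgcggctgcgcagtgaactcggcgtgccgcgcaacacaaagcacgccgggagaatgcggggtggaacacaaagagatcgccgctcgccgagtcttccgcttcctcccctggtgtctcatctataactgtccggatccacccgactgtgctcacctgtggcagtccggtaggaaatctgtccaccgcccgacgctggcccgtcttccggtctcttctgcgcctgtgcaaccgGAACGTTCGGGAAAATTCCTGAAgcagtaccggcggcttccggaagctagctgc
Cirbp: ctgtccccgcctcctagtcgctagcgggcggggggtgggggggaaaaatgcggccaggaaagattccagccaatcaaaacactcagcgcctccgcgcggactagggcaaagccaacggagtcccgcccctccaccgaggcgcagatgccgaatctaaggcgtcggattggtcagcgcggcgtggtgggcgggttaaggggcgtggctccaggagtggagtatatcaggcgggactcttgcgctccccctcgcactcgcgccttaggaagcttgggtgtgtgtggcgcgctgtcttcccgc
The Hsph1 match begins 37 bases after the start site, inside the transcribed part of the window. Chordc1 holds 3 overlapping matches around its start site, and the letters are not in the Cirbp window. A match describes the letters and is not a measured binding site.

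Among inhibitory receptors, Ctla4 fell and was the 1 gene to pass in edgeR. Ctla4, the receptor that competes with CD28 for its ligands, had 80.6, 101 and 80.1 CPM with iNKT1, against 152, 130 and 139 CPM in untreated cells. Even the highest iNKT1 library was under the lowest untreated one, while day 0 cells held 11 to 11.8 CPM. Ctla4 fell by 0.69 on the log2 scale (SE 0.12, 95% interval -0.93 to -0.44, edgeR adjusted p = 0.0375). It lost its call in all 6 fits that left out a library. Regulatory T cells also express Ctla4: their factor Foxp3 stood at 2.94, 6.59 and 4.35 CPM with iNKT1 and at 4.8, 2.82 and 7.15 CPM in untreated cells, which overlap. The marker list of CD4 and regulatory T cells summed to 33 to 39.9 CPM with iNKT1 and 40.5 to 45.4 CPM in untreated cells. Within it, Tnfrsf4 had 12.8, 11.5 and 12.7 CPM with iNKT1 and 21.8, 17 and 18.6 CPM in untreated cells. The separation of the sums rested on Tnfrsf4, the 1 of the list's 9 tested genes whose groups did not overlap. Of these 9 genes, 4 lay above 0 and 5 below, with a median log2 fold change of -0.01. The part of CD4 and regulatory T cells in the Ctla4 difference was not tested.

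Of the 25 tested genes of the inhibitory and exhaustion list, 1 passed in edgeR and 2 in DESeq2, 7 were separated downward and 2 upward (8.98% and 9.5% of all genes), and the median log2 fold change was -0.01. Pdcd1, which encodes PD-1, had 722, 761 and 698 CPM with iNKT1 and 901, 1080 and 875 CPM in untreated cells, a difference of -0.39 (edgeR adjusted p = 0.328). Tigit had 90.9, 70.7 and 62.7 CPM with iNKT1 and 112, 99.9 and 107 CPM in untreated cells (edgeR adjusted p = 0.154; DESeq2 0.0325). Tox, a factor of the exhausted state, had 107, 88.4 and 111 CPM with iNKT1 and 124, 121 and 113 CPM in untreated cells (edgeR adjusted p = 0.517). For these 3 genes the groups were separated but the differences did not pass in edgeR. Among 21 tested costimulatory and activation receptors 0 passed in edgeR, with 3 higher and 1 lower at an unadjusted p under 0.05, and 1 in DESeq2. It was Cd226, an activating receptor that shares ligands with Tigit, at 70, 58 and 68.3 CPM with iNKT1 against 46, 50.2 and 39.9 CPM in untreated cells (edgeR adjusted p = 0.0519; DESeq2 0.000588).

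The remaining genes that passed lie outside these lists. On the higher side, Rtn4rl1, of the Nogo receptor family, had 28.2, 28.7 and 24.6 CPM with iNKT1 against 16.2, 16.5 and 16.4 CPM in untreated cells, and rose by 0.73 (SE 0.11, edgeR adjusted p = 0.0163). Atad2, a chromatin-bound ATPase with a bromodomain, had 90.1, 91.2 and 106 CPM with iNKT1 against 60.4, 64.5 and 56.7 CPM in untreated cells, and rose by 0.66 (SE 0.12, edgeR adjusted p = 0.0408). Gpr15, which guides T cells to the large intestine, had the largest rise, 1.91 (SE 0.34, edgeR adjusted p = 0.0408), at low levels of 1.27, 2.01 and 2.81 CPM with iNKT1 against 0.58, 0.496 and 0.539 CPM in untreated cells. Man1a, a Golgi mannosidase that trims N-glycans, rose by 0.55. Pafah1b1, the dynein regulator LIS1, rose by 0.53, P4ha1, a prolyl hydroxylase subunit for collagen, by 0.6, and the claudin-domain gene Cldnd1 by 0.56. Abcg3, of the ABC transporters, rose by 1.06 and the predicted gene Gm8113 by 1.37, at 8.57, 7.95 and 9.53 CPM with iNKT1 against 3.64, 4.34 and 4.5 CPM in untreated cells for Abcg3.

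On the lower side, Stoml1, a stomatin-like membrane protein gene, had 24.2, 33.8 and 27.8 CPM with iNKT1 against 60.3, 50.8 and 56.7 CPM in untreated cells, and fell by 0.97 (SE 0.14, edgeR adjusted p = 0.0163). Tcirg1, a subunit of the vacuolar proton pump, had 55, 53.2 and 45.5 CPM with iNKT1 against 74.8, 74.9 and 80.5 CPM in untreated cells, and fell by 0.58 (SE 0.1, edgeR adjusted p = 0.0408). Mfsd10, a transporter of the major facilitator family, was tight within groups at 56.6, 56 and 55.4 CPM with iNKT1 against 82.8, 84.5 and 85.4 CPM in untreated cells, and fell by 0.59 (SE 0.1, edgeR adjusted p = 0.0408). Fbxo17, an F-box protein that selects targets for ubiquitination, fell by 0.7 (edgeR adjusted p = 0.0462). The pseudogene Slfn10-ps fell by 0.9 and the low-count E130218I03Rik by 1.33, at 1.61, 1.26 and 1.36 CPM with iNKT1 against 3.28, 3.6 and 3.77 CPM in untreated cells for E130218I03Rik. Slfn10-ps has close relatives whose reads the counting may have split.

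Among 25 tested cytotoxic granule genes 0 passed in edgeR (2 higher and 1 lower at an unadjusted p under 0.05) and 1 in DESeq2, the granzyme gene Gzmm. It had 13.3, 14.9 and 21.7 CPM with iNKT1 and 9.37, 7.94 and 9.5 CPM in untreated cells (edgeR adjusted p = 0.158; DESeq2 0.0396). Gzmb, the main granzyme, had 2820, 3110 and 2290 CPM with iNKT1 and 3320, 3100 and 2080 CPM in untreated cells, and its difference of -0.05 had a 95% interval of -0.45 to 0.35. Of 21 tested effector cytokines and chemokines 0 passed in edgeR (3 at an unadjusted p under 0.05, all higher) or in DESeq2, while 16 lay above 0 and the median was 0.22, the highest of the 23 programme lists. Groups were separated upward for 1 of these 21 genes and downward for 1, where 9.5% and 8.98% of all genes were. Among them Ifng had 63.6, 58.3 and 92.6 CPM with iNKT1 and 57.7, 63.3 and 75.5 CPM in untreated cells, a difference of 0.13 (interval -0.38 to 0.63). Prf1, the pore-forming perforin gene, had 598, 628 and 597 CPM with iNKT1 and 676, 653 and 746 CPM in untreated cells, a difference of -0.19 (interval -0.52 to 0.15). These intervals cover 0 and leave room for changes in either direction.

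Of the 37 tested effector differentiation genes 0 passed in edgeR (5 higher and 1 lower at an unadjusted p under 0.05) and 1 in DESeq2, S1pr5; 20 lay above 0 and 17 below, with a median of 0.03. S1pr5, the sphingosine phosphate receptor by which effector cells leave tissue, had 14.8, 17.9 and 41.5 CPM with iNKT1 and 4.86, 2.45 and 9.19 CPM in untreated cells, a log2 difference of 2.18 (SE 0.54, 95% interval 1.02 to 3.34) that did not pass in edgeR (adjusted p = 0.111; DESeq2 0.0172). Klrg1, a receptor of short-lived effector cells, had 52.3, 59.8 and 114 CPM with iNKT1 and 26.7, 23.8 and 52 CPM in untreated cells (edgeR adjusted p = 0.295, and 0.0118 with the library number as a block). That block kept 1 of the 23 main calls, Cirbp, and Srsf7, Hsph1 and Ctla4 did not pass with it. Gzma overlapped, at 87.8, 157 and 373 CPM with iNKT1 and 94.8, 40.4 and 115 CPM in untreated cells. For S1pr5, Klrg1 and Gzma the library numbered 3 was the highest of each group. The NK cell list, which holds Gzma, summed to 161 to 502 CPM with iNKT1 and 97.5 to 244 CPM in untreated cells, and 7 of its 8 tested genes lay above 0 (median 0.59). Most of the sum was Gzma and Eomes. Klre1 had 8.13, 5.05 and 23.5 CPM with iNKT1 and 4.09, 3.47 and 6.69 CPM in untreated cells. Klrb1c went the other way, at 8.8, 6.89 and 16.9 CPM with iNKT1 and 15.2, 14.6 and 44.1 CPM in untreated cells. Ncr1 was at 1.55 CPM or less, and Klra8, which some mouse strains lack, was at 0 in all 6 libraries. The part of NK cells was not tested. T-bet's gene Tbx21 had 648, 655 and 704 CPM with iNKT1 and 509, 510 and 555 CPM in untreated cells (edgeR adjusted p = 0.395).

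By counts of genes, the cell cycle and interferon lists leaned upward without a call in edgeR, while their summed levels overlapped. Cell cycle genes summed to 11400 to 12600 CPM with iNKT1 and 9990 to 11800 CPM in untreated cells (medians 12100 and 11500). Interferon genes summed to 8650 to 9690 CPM with iNKT1 and 8110 to 9300 CPM in untreated cells (medians 8860 and 9060). Over all genes tested, 7146 lay above 0 and 7366 below, and 9.5% were separated upward and 8.98% downward. Of 56 tested cell cycle genes, 43 lay above 0 with a median of 0.11; groups were separated upward for 14 and downward for 0, and 8 had an unadjusted p under 0.05, all higher. DESeq2 called 3 genes of the list, Ccnd2, Ccnd3 and Ccne2, all higher. Ccnd2, which encodes the G1 cyclin D2, had 88.4, 77.6 and 117 CPM with iNKT1 and 52, 49.9 and 64.9 CPM in untreated cells (edgeR adjusted p = 0.0519, and 0.0234 without the low-count filter; DESeq2 0.000508). Mki67, the proliferation marker, overlapped at 177, 105 and 155 CPM with iNKT1 and 110, 209 and 91.1 CPM in untreated cells. Of 63 tested interferon-stimulated genes, 48 lay above 0 with a median of 0.2; groups were separated upward for 10 and downward for 4, and 10 higher and 2 lower had an unadjusted p under 0.05. DESeq2 called 1 gene of the list, Zbp1. Zbp1, a sensor of Z-form nucleic acid, had 109, 119 and 131 CPM with iNKT1 and 92.1, 87 and 83.5 CPM in untreated cells (edgeR adjusted p = 0.0706; DESeq2 0.00403).

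Ribosomal, proteasome and respiratory chain genes lay mostly below 0. Of 55 tested cytosolic ribosomal protein genes 49 lay below 0, of 31 proteasome genes 26 and of 37 oxidative phosphorylation genes 27, with medians of -0.06, -0.08 and -0.06 and 0 calls in edgeR or in DESeq2 (0, 1 and 1 genes at an unadjusted p under 0.05 in edgeR). Ribosomal genes summed to 16200 to 16600 CPM with iNKT1 and 16000 to 19400 CPM in untreated cells (medians 16400 and 16600). Proteasome genes summed to 7950 to 8950 CPM with iNKT1 and 8290 to 10200 CPM in untreated cells (medians 8610 and 8340). Oxidative phosphorylation genes summed to 9060 to 10100 CPM with iNKT1 and 9280 to 11000 CPM in untreated cells (medians 9410 and 9580). All sums overlapped, and the highest untreated library stood well above its group's median. The list of Myc and ribosome biogenesis genes had 17 of 31 above 0 and a median of 0.01. In the list of naive, memory and quiescence genes, Il7r, the interleukin 7 receptor, had 147, 192 and 153 CPM with iNKT1 and 318, 229 and 286 CPM in untreated cells (edgeR adjusted p = 0.169; DESeq2 0.0314). Tob1, an antiproliferative gene, stood at 29.2, 30.7 and 29.4 CPM with iNKT1 and 20.9, 18 and 20.6 CPM in untreated cells (edgeR adjusted p = 0.0519; DESeq2 0.00043). The co-receptor genes Cd8a and Cd8b1 were higher in level with iNKT1 but did not pass in edgeR, with Cd8a at 546, 513 and 464 CPM with iNKT1 against 397, 394 and 349 CPM in untreated cells (edgeR adjusted p = 0.11; DESeq2 0.0161).

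**Figure D3:**
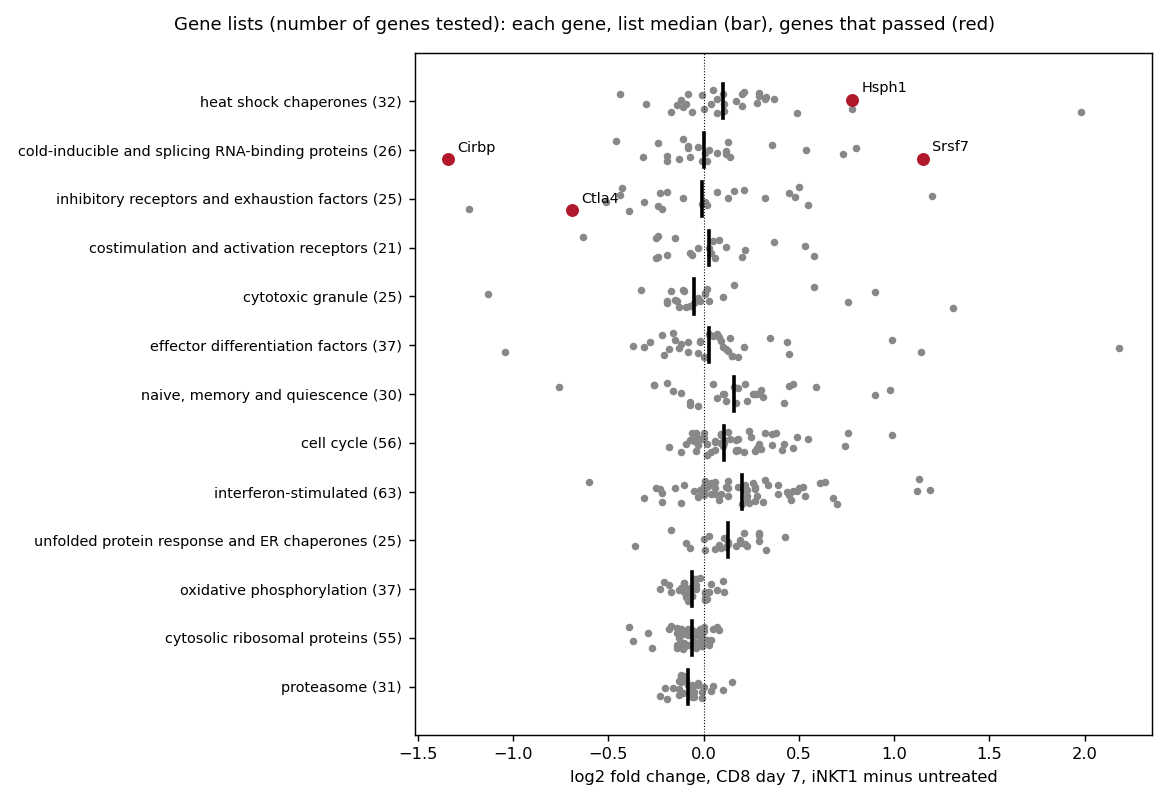
Log2 fold change (iNKT1 minus untreated, horizontal) of each tested gene in 13 lists (rows, with the number tested); bars are list medians and red points the 4 list genes that passed. Points of the heat shock, cell cycle and interferon lists lie mostly above 0, with medians of 0.1, 0.11 and 0.2.

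Donor CD8 T cells from hosts given iNKT2 or iNKT17 cells held similar levels of several of these genes. Cirbp had 57.4, 63.5 and 73.8 CPM with iNKT2 and 74.8, 59.2 and 90.3 CPM with iNKT17, and Hsph1 had 181, 163 and 167 CPM with iNKT2 and 148, 166 and 174 CPM with iNKT17. These treatments share the untreated libraries, so their differences from untreated are not separate evidence. Set directly against each other, 0 of 14586 genes passed in edgeR for iNKT1 minus iNKT2 (0%; 1731 genes or 11.9% at an unadjusted p under 0.05; 40 with DESeq2). For iNKT1 minus iNKT17, 0 passed (0%; 1355 genes or 9.29% at an unadjusted p under 0.05; 15 with DESeq2). The interval of the Cirbp difference was -0.45 to 0.25 against iNKT2 and -0.66 to 0.05 against iNKT17, and that of Hsph1 was -0.23 to 0.25 and -0.16 to 0.31.

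Some called genes differed in level between the treatments, without passing in edgeR. Atad2 had 66.2, 66.3 and 69.8 CPM with iNKT2 and 79.2, 80.5 and 63.5 CPM with iNKT17, below every iNKT1 library. The iNKT1 level exceeded the iNKT2 level by 0.51 on the log2 scale (interval 0.26 to 0.76, edgeR unadjusted p = 0.000613, adjusted p = 0.351). Stoml1 was at 40.5, 46.2 and 39.2 CPM with iNKT2, and iNKT1 minus iNKT2 was -0.55 (interval -0.84 to -0.26, edgeR adjusted p = 0.351). Ctla4 was lower still with the other sublineages, at 62.1, 75.7 and 72.5 CPM with iNKT2 and 72.4, 71.5 and 59.7 CPM with iNKT17; iNKT1 minus iNKT17 was 0.36 (interval 0.11 to 0.61, edgeR adjusted p = 0.466).

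Donor CD4 T cells of the same groups share no libraries with the CD8 cells, though their titles carry the same experiments and numerals. In CD4 cells 0 of 15031 genes passed for iNKT1 minus untreated in edgeR (0%; 1008 genes or 6.71% at an unadjusted p under 0.05; 145 with DESeq2). Of the 21 distinct CD8 calls, all 21 had the same direction in CD4 cells and 17 had separated groups in that direction. The share of all genes with the same direction in both cell types was not taken, so these 21 have no base rate. With shared experiments and numerals, the CD4 cells may also not be a separate replication. Over all genes tested in CD4 cells 19.8% were separated, 9.31% upward and 10.5% downward. Of the cell cycle list 20 of 56 genes lay above 0 in CD4 cells (median -0.09), and of the interferon list 52 of 63 (median 0.2). Cirbp had 49.3, 53.3 and 61.1 CPM in CD4 cells with iNKT1 against 169, 141 and 145 CPM in untreated CD4 cells, a log2 difference of -1.48 (SE 0.23, edgeR adjusted p = 0.119). Ctla4 had 112, 138 and 122 CPM in CD4 cells with iNKT1 against 225, 240 and 198 CPM in untreated CD4 cells (edgeR adjusted p = 0.228).

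The difference between the CD8 and the CD4 effect was tested directly, and 0 of 15601 genes passed in edgeR (0%; 377 genes or 2.42% at an unadjusted p under 0.05; 3 with DESeq2). The fit had group terms only and took CD8 and CD4 libraries as independent, although their titles share experiments and numerals. A pairing of the cell types was not fitted, and the intervals below rest on that. For Cirbp, CD8 minus CD4 was 0.14 (interval -0.45 to 0.73), and for Hsph1 0.19 (interval -0.28 to 0.66). Atad2 was close to 0 in CD4 cells, at 36, 39.8 and 44.6 CPM with iNKT1 and 32.2, 41.6 and 39.8 CPM in untreated CD4 cells, and its CD8 minus CD4 difference was 0.59 (interval -0.1 to 1.27). E130218I03Rik gave -1.22 (interval -1.91 to -0.52, edgeR unadjusted p = 0.00138), which did not pass the adjustment.

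**Figure D4:**
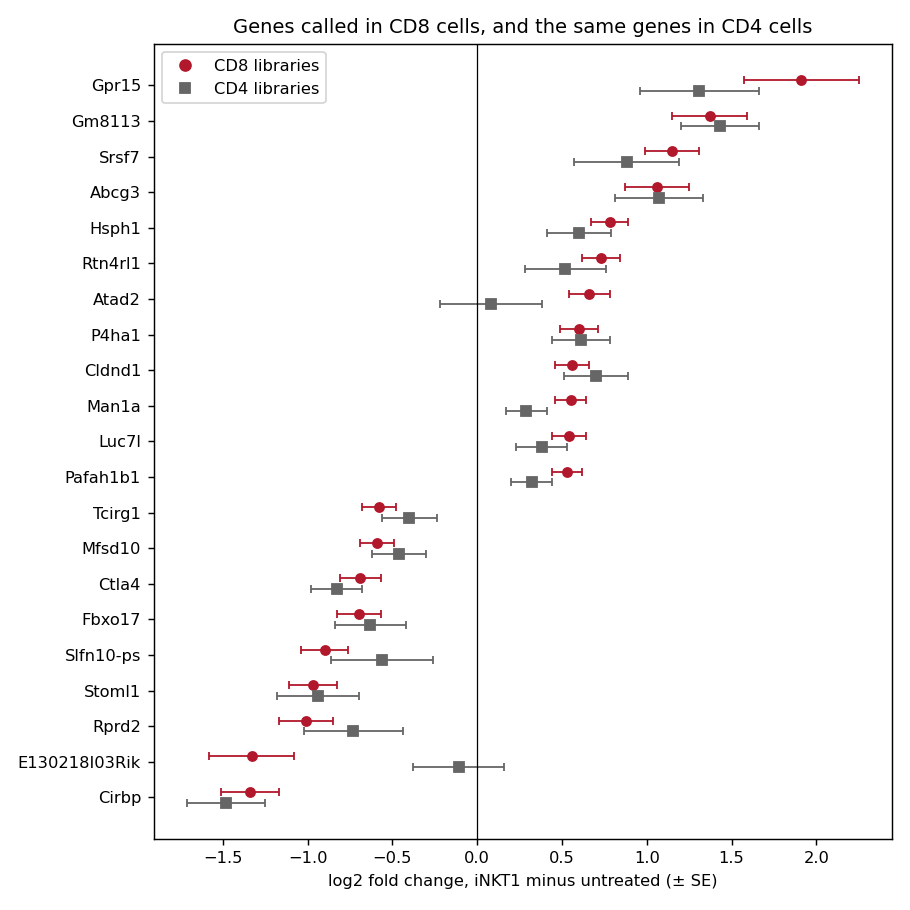
Log2 fold change with SE (iNKT1 minus untreated, horizontal) of the 21 distinct genes called in CD8 cells (rows), in CD8 libraries (red circles) and CD4 libraries (grey squares), 3 libraries per group. All 21 CD4 values lie on the same side of 0 as the CD8 values, with Atad2 and E130218I03Rik nearest to 0.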

How the data were processed

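Full-length cDNA of sorted donor T cells was made with SMARTer v4 and Nextera XT kits and sequenced as 75 bp paired ends, per the labels' protocols. The authors deposited raw counts per Ensembl gene, whole numbers with no normalization. The submitters' processing notes list STAR 2.5.4, kallisto and DESeq2 1.22.2 with builds mm10 and GRCm38; which tool counted, and whether by strand, is not given in the sources used here. Symbols matched 98.2% of 35661 IDs, and 0 sample columns were left unmatched.

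Counts of the 15 CD8 libraries in 5 groups were filtered by group, TMM-scaled and fitted with edgeR 4.0.16 (quasi-likelihood, Benjamini-Hochberg, threshold 0.05); CPM use the same factors, SE come from the F statistic, and the biological coefficient of variation was 0.196. CD4 cells had their own fit of 15 libraries and the CD8 minus CD4 effect a fit of 30. DESeq2 1.42.0 and limma 3.58.1 served as alternatives. No experiment term was fitted, since the column names do not give the experiment. The groups of the columns run in the same order as those of the samples, but that order was not used to assign experiments.

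Genes named were all calls, up to 4 per list by smallest p among 23 programme and 9 cell type lists, and 14 key genes; others were named after their values were seen. Members, lists and tests were chosen with earlier results of these data known.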

Additional observations from a re-analysis of the deposited data

How the results depend on the processing

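The 23 calls of iNKT1 minus untreated became 24 with DESeq2-type size factors in edgeR, 24 with limma voom, 33 without the low-count filter and 19 with identical count profiles counted once, a setting chosen after seeing the data. DESeq2 gave 388 (205 higher, 183 lower). A fit of only the groups compared gave 3 (2 higher, 1 lower), and a test against a 1.2-fold change gave 1 (0 higher, 1 lower). Leaving out 1 library gave 0 to 9 calls (0 to 6 higher, 0 to 3 lower). With the replicate block the count was 3 (2 higher, 1 lower), 1 of them among the 23, and Klrg1 passed (edgeR adjusted p = 0.0118). The 1 among the 23 was Cirbp (edgeR adjusted p = 0.0287). Srsf7, Hsph1 and Ctla4 lost their calls with the block, at edgeR adjusted p-values of 0.0682, 0.0748 and 0.0967. Same-numbered iNKT1 and untreated libraries correlated at -0.144, -0.21 and 0.0657 after group means were taken off, and unlike-numbered ones at -0.107 to 0.254. Deviations from means of 3 libraries cannot decide whether the numbers carry a pairing or a shared experiment. With the block the counts stayed at 0 for iNKT1 minus iNKT2, iNKT1 minus iNKT17 and CD8 minus CD4.

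For iNKT1 minus iNKT2, DESeq2 gave 40, a fit of only the groups compared 4, and leaving out 1 library 0 to 1. For iNKT1 minus iNKT17 DESeq2 gave 15, and for CD8 minus CD4 it gave 3. In CD4 cells, iNKT1 minus untreated gave 145 with DESeq2 and 3 with the replicate block, settings chosen after seeing the data. The cause of these shifts was not tested. Of 1090 gene values under alternatives, 9 changed sign, all in genes that did not pass: leaving out 1 library in turn gave -0.12 to 0.53 for Mki67, -0.1 to 0.25 for Ifng, -0.06 to 0.38 for Tcf7 and -0.22 to 0.08 for Gzmb. Signs changed for Mki67 at -0.07, -0.04 and -0.12, Ifng at -0.1, Tcf7 at -0.06 and -0.02, and Gzmb at 0.07, 0.08 and 0.02. Of 462 list medians, 41 moved by more than the spread. With 3 libraries a group, small changes are not detectable here.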
